A study of Homo sapiens with 6 samples.

Results

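The p53 target genes described here are 31 human genes chosen by name from a list of p53 pathway symbols. Control of each gene by p53 was not tested here. Each symbol was mapped to its Ensembl ID, and all 31 were among the 45372 IDs measured. All 31 also had at least 1 TPM in at least 3 libraries, the level that 13680 IDs reached and that a gene needed to enter the tests. TPM, a gene's number of transcripts in every 1000000, corrects read counts for gene length and for library size.

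The cells were HUVECs, primary endothelial cells of the human umbilical vein, labelled WT and used after 3 passages. In the mimic group (3 libraries), a lipid reagent carried 50 nM of a miR-409-3p mimic, a synthetic copy of the mature microRNA, into the cells. In the control group (3 libraries), the same reagent carried 50 nM of a non-specific control RNA, and RNA of both groups was labelled as taken at 48 h. All 6 titles, of mimic and control libraries alike, describe the cells as non-treated without naming a treatment. The libraries of each group are labelled biological replicates 1 to 3, and the design text says that 4 technical replicates were pooled for each RNA sample. Nothing in the labels says whether the replicates came from separate cultures, so the p-values measure the spread between these libraries, which may be technical.

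p53 is a transcription factor that is held at a low level in unstressed cells, because its target MDM2 marks it for degradation. DNA damage and other stresses free p53, which then raises genes that stop the cell cycle, repair DNA, shift metabolism or start apoptosis, together with genes that shut the response down again. In endothelial cells the pathway is known for growth arrest, senescence and restraint of new vessel growth.

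A microRNA lowers mRNAs that pair with its seed, bases 2 to 8, mostly through sites in the 3′ UTR. The mature miR-409-3p sequence (RefSeq, GRCh38.p14, chr14:101065346-101065367, plus strand) is shown first with its seed in capitals. The 6 sites under it are from the 3′ UTRs of members (GRCh38 sequence, GENCODE 29 transcripts, sense strand), with the bases that match the seed in capitals. PPM1D, ZMAT3 and CCNG1 are shown because they were the members with the longest matches found, CAACATT. POLH, TIGAR and XPC come from the 8 members that held only the shortest match searched, AACATT. They were picked from these because their mimic values were lower. None of the genes shown passed the test between the groups.
miR-409-3p: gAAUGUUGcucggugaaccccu
PPM1D: ggtgctgctaattccCAACATTtc
ZMAT3: tgttaacatgttcctCAACATTtt
CCNG1: ggtttatgtcaaaagCAACATTtc
POLH: ggcctgagggcatgcaAACATTgg
TIGAR: tgggggaagaagttaaAACATTtg
XPC: atctagttttccaagtAACATTtt
In the same order, the capitals of these sites lie at chr17:60664391-60664397 on the plus strand, chr3:179019593-179019599 on the minus strand, chr5:163444121-163444127 on the plus strand, chr6:43614521-43614526 on the plus strand, chr12:4353291-4353296 on the plus strand and chr3:14145348-14145353 on the minus strand.

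The libraries were of similar depth and were endothelial by their markers. The estimated depth, from the size of the steps between low TPM values, was 29900000 to 35900000 reads in mimic libraries and 32300000 to 34800000 reads in control libraries. All 12 endothelial markers reached 1 TPM in at least 3 libraries, and they summed to 6396 to 6582 TPM in mimic libraries and 6124 to 6413 TPM in control libraries. At an unadjusted p under 0.05, 1 of them was higher, the lectin CLEC14A (log2 fold change 0.14, adjusted p = 0.32 by limma). Over all genes tested, 3.05% were higher at that threshold. Leukocyte markers summed to 0.105 to 0.613 TPM in mimic libraries and 0.259 to 0.425 TPM in control libraries, with PTPRC, CD3E and ITGAM at 0. Smooth muscle markers summed to 10.4 to 12.02 TPM in mimic libraries and 9.6 to 13.3 TPM in control libraries, and fibroblast markers to 13.1 to 16.6 TPM in mimic libraries and 13.1 to 16.4 TPM in control libraries. Epithelial markers, mostly the keratin KRT18, summed to 261 to 327 TPM in mimic libraries and 307 to 318 TPM in control libraries, and the ranges of the groups overlapped for all 5 lists.

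No p53 target gene passed the test between mimic and control cells, and the differences that were seen were small. Of the 31 genes, 0 were higher and 0 were lower at an adjusted p under 0.05 by limma with Benjamini-Hochberg adjustment over 13680 genes, where 18 genes (0.132%) were higher and 41 (0.3%) were lower, 0.431% in all. At an unadjusted p under 0.05, 1 member was higher and 7 were lower, against a background of 3.05% and 7.64% of all genes tested (10.7% in either direction). In 9 members all mimic values lay below all control values, and in 1 member all lay above. Over all genes tested the shares so placed were 10.5% and 5.16% (15.7% together). The fold changes of the members ran from -0.35 (BBC3) to 0.16 (SUSD6) on log2(TPM + 1), where the added 1 shrinks the change of weakly expressed genes. Their median was -0.06 against -0.0166 for all genes tested. With 1 library left out, the median of the members ran from -0.078 (without control library 1) to -0.034 (without control library 3). In all, 19 of 31 (61.3%) lay below 0 against 56.6% of all genes tested. In bulk RNA of this kind, fewer cells that express a gene and less RNA per cell cannot be told apart.

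**Figure D1:**
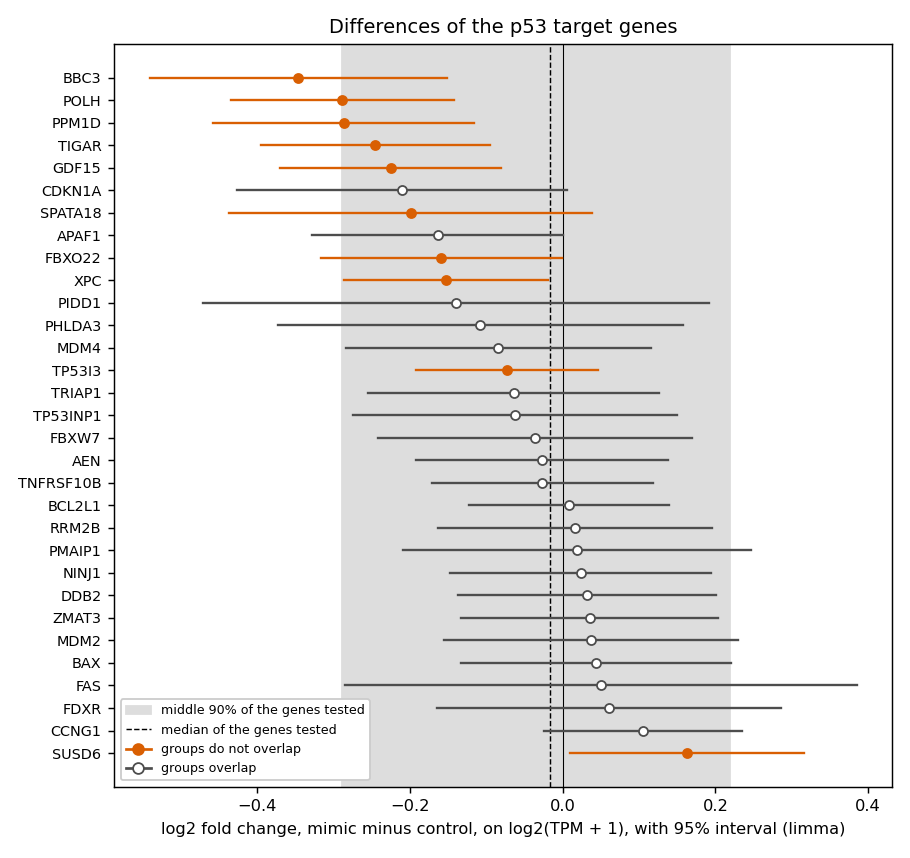
Difference of each p53 target gene between 3 mimic and 3 control libraries, as the log2 fold change on log2(TPM + 1) (x axis) with its 95% interval; filled orange points are genes whose groups do not overlap, open grey points those whose groups overlap. The grey band holds the middle 90% of the genes tested, from -0.29 to 0.22, and the dashed line is their median; BBC3 at -0.35 lies below the band and POLH and PPM1D lie at its lower end.

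The members that stood apart are counted here by arm, with no test between the arms, which held only 3 to 6 genes each. Over all genes tested, 10.5% had all mimic values below all control values, and 5.16% had all above. In metabolism, mitochondria and secreted factors, 4 of 5 members had all mimic values below all control values, with a median log2 fold change of -0.20. In DNA repair and nucleotide supply this held for 2 of 4 members, and in feedback and protein turnover for 2 of 6. Among the apoptosis genes it held for 1 of 6 mitochondrial members, 0 of 3 death receptor members and 0 of 4 others. The arrest and growth control arm held the 1 member that was higher without overlap, of 3. Of the 4 metabolic and secreted members, SPATA18 and TP53I3 had unadjusted p-values of 0.0903 and 0.198 (limma). No member of any arm passed the adjusted threshold.

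**Figure D2:**
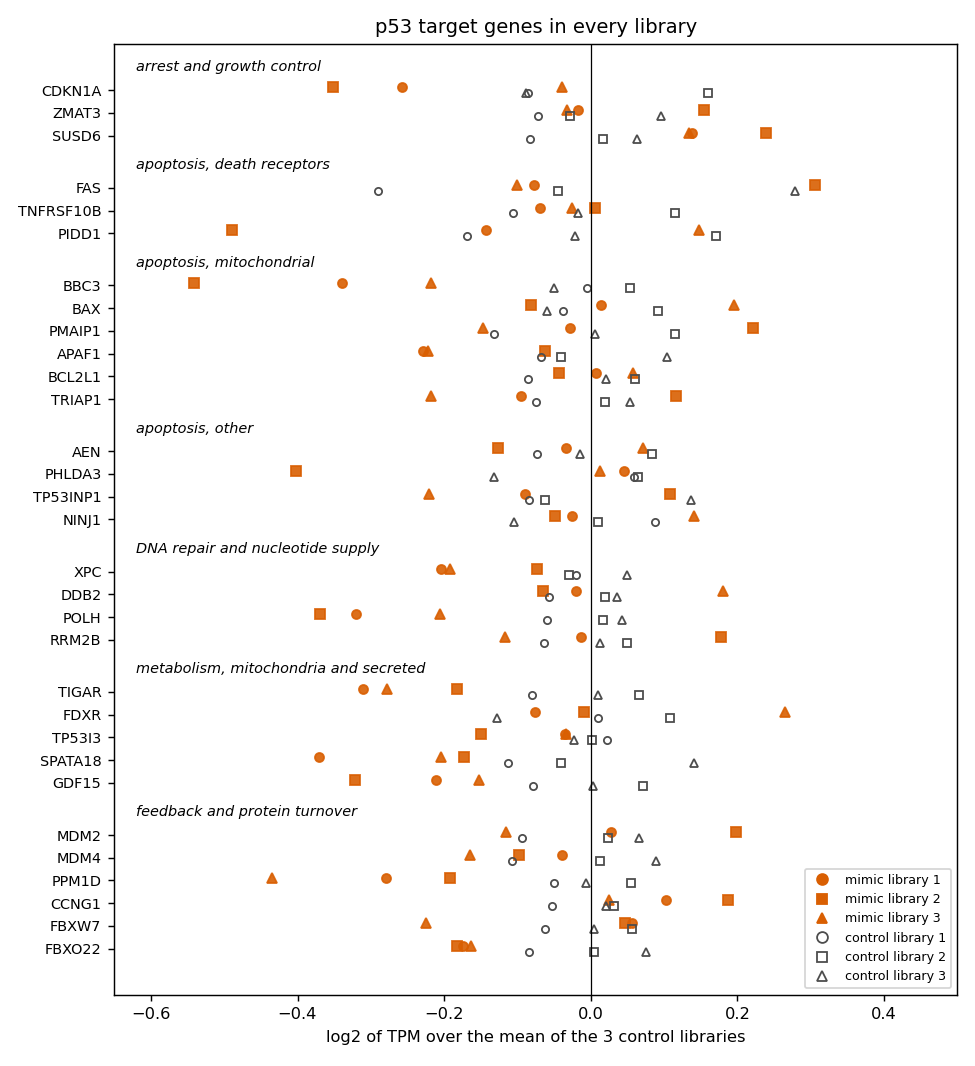
Level of the 31 p53 target genes in each library, as the log2 of its TPM over the mean of the 3 control libraries (x axis), grouped by arm; filled orange symbols are mimic libraries and open grey symbols control libraries, with 1 symbol shape per replicate number. The mimic symbols of BBC3, POLH, PPM1D, TIGAR and GDF15 sit left of all control symbols, while those of MDM2, BAX and DDB2 are mixed with them.

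CDKN1A encodes p21, the inhibitor of cyclin-dependent kinases through which p53 stops the cell cycle. Its level was 154, 144 and 179 TPM in mimic libraries 1 to 3, against 174, 206 and 173 TPM in control libraries 1 to 3. Mimic libraries 1 and 2 were the lowest and mimic library 3 lay between the control values, so the groups overlapped. The means were 159 ± 18.0 TPM with the mimic and 184 ± 18.7 TPM in controls (SD, n = 3 each), and the difference of -0.21 on the log2 scale (95% interval -0.43 to 0.0062) did not pass (limma, adjusted p = 0.483). An antisense gene, DINOL, overlaps exons of CDKN1A, and the use of strand in counting is not given in the sources used here. ZMAT3, an RNA-binding zinc finger protein of the p53 response, averaged 28.1 ± 2.07 TPM with the mimic and 27.4 ± 1.68 TPM in controls (SD, n = 3 each), with overlapping groups.

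SUSD6, a membrane protein with a sushi domain and a p53-responsive gene with growth-suppressing activity, was the member with the highest fold change. It measured 18.8, 20.2 and 18.8 TPM in mimic libraries, against 16.1, 17.3 and 17.9 TPM in control libraries. Each mimic library exceeded each control library, but the lowest mimic and highest control values lay less than 1 TPM apart. The log2 fold change was 0.16 (SE 0.07, 95% interval 0.0092 to 0.32), with an unadjusted p of 0.0401 and an adjusted p of 0.426 (limma).

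The death receptor arm holds FAS, the receptor for FAS ligand, TNFRSF10B, a receptor for TRAIL, and PIDD1, the scaffold that activates caspase-2. These genes differed widely in level: TNFRSF10B averaged 180 ± 4.66 TPM with the mimic and 183 ± 14.2 TPM in controls (SD, n = 3 each), while FAS averaged 5.0 ± 0.825 TPM with the mimic and 4.81 ± 0.959 TPM in controls. In all 3 genes the groups overlapped, and the log2 fold changes lay between -0.14 (PIDD1) and 0.05 (FAS). FAS had only 139 to 225 estimated reads per library, and its 95% interval ran from -0.29 to 0.39.

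In the mitochondrial branch of apoptosis, BBC3 had the lowest fold change of all members. BBC3 encodes PUMA, a BH3-only protein that frees BAX and BAK to permeabilise mitochondria. It measured 16.7, 14.5 and 18.2 TPM in mimic libraries, against 21.1, 21.96 and 20.4 TPM in control libraries. All mimic values lay below all control values, with mimic library 2 the lowest and mimic library 3 the nearest to the controls. The means were 16.5 ± 1.84 TPM with the mimic and 21.2 ± 0.759 TPM in controls (SD, n = 3 each), a ratio of 0.779. The log2 fold change was -0.35 (SE 0.09, 95% interval -0.54 to -0.15), with an unadjusted p of 0.00316 and an adjusted p of 0.148 (limma), so BBC3 did not pass. BBC3 (ENSG00000105327) lies on the minus strand at chr19:47220822-47232766 (GRCh38), and the genes of 2 small RNAs, MIR3191 and MIR3190, overlap its exons.

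The other 5 genes of that branch overlapped between the groups. BAX, the pore-forming effector that PUMA acts on, measured 153, 143 and 174 TPM in mimic libraries and 148, 162 and 146 TPM in control libraries. Mimic library 3 was the highest and mimic library 2 the lowest of all 6, and the log2 fold change was 0.04 (95% interval -0.13 to 0.22; limma, adjusted p = 0.94). APAF1, the scaffold of the apoptosome, measured 27.4, 30.7 and 27.5 TPM with the mimic and 30.6, 31.2 and 34.5 TPM in controls, and only mimic library 2 reached into the control range. Its log2 fold change was -0.16 (SE 0.07; limma, unadjusted p = 0.051, adjusted p = 0.468). PMAIP1 (NOXA, another BH3-only protein), BCL2L1 (the protective BCL-XL) and TRIAP1 (an inhibitor of apoptosis) had log2 fold changes of 0.02, 0.0087 and -0.06.

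AEN, a nuclease of apoptotic cells, PHLDA3, an inhibitor of AKT signalling, TP53INP1, a nuclear stress protein, and NINJ1, a membrane protein that ruptures dying cells, also overlapped between the groups. Their log2 fold changes ran from -0.11 (PHLDA3) to 0.02 (NINJ1). PHLDA3 was at 22.5 TPM in mimic library 2, against 30.7 and 30.01 TPM in mimic libraries 1 and 3 and 27.2 to 31.1 TPM in control libraries, and without that library its log2 fold change was 0.03 instead of -0.11.

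The DNA repair arm was split. POLH, the polymerase that copies past ultraviolet lesions, measured 28.6, 27.6 and 30.9 TPM in mimic libraries, against 34.2, 36.1 and 36.7 TPM in control libraries. No mimic value came within 3 TPM of a control value, and the ratio of means was 0.814 (29.04 ± 1.71 TPM with the mimic, 35.7 ± 1.303 TPM in controls, SD, n = 3 each). POLH had the lowest p of all members, with a log2 fold change of -0.29 (SE 0.06, 95% interval -0.43 to -0.14), an unadjusted p of 0.00166 and an adjusted p of 0.108 (limma). POLH (ENSG00000170734) lies on the plus strand at chr6:43576150-43615660, and GTPBP2, on the opposite strand, shares exon positions with it. Exons of XPC, TP53I3, FBXO22, FAS, PIDD1, APAF1, TNFRSF10B, BCL2L1 and FBXW7 are likewise overlapped by genes on the opposite strand, whose reads cannot be told apart from theirs without strand. PHLDA3 is overlapped by a gene on its own strand, and TIGAR and MDM2 by genes on both strands.

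XPC, which recognises DNA damage for nucleotide excision repair, measured 43.3, 47.5 and 43.7 TPM in mimic libraries, against 49.2, 48.9 and 51.7 TPM in control libraries. The groups did not overlap, and mimic library 2 came nearest to the controls. The log2 fold change was -0.15 (SE 0.06; limma, unadjusted p = 0.0298, adjusted p = 0.383). DDB2, the ultraviolet damage sensor of the same repair pathway, did not share this pattern. It measured 32.8, 31.8 and 37.6 TPM with the mimic and 31.9, 33.7 and 34.1 TPM in controls, and its log2 fold change was 0.03 (95% interval -0.14 to 0.20; limma, adjusted p = 0.961). RRM2B, the p53-inducible ribonucleotide reductase subunit that supplies nucleotides for repair, had a log2 fold change of 0.02.

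The metabolic and secreted arm was the one with most members below the controls. TIGAR, a phosphatase that turns sugar from glycolysis towards the pentose phosphate pathway, measured 21.1, 23.1 and 21.6 TPM in mimic libraries, against 24.7, 27.4 and 26.3 TPM in control libraries. The groups were separate, with a ratio of 0.838 and a log2 fold change of -0.25 (SE 0.07, 95% interval -0.40 to -0.10; limma, unadjusted p = 0.00517, adjusted p = 0.186). GDF15, a secreted stress cytokine, measured 110.2, 102.1 and 114.8 TPM with the mimic and 120.8, 134.1 and 127.9 TPM in controls. Its highest mimic value lay below its lowest control value, and its log2 fold change was -0.23 (SE 0.06, 95% interval -0.37 to -0.08; limma, unadjusted p = 0.00671, adjusted p = 0.211). TIGAR (ENSG00000078237) lies on the plus strand at chr12:4307763-4354593, and GDF15 (ENSG00000130513) on the plus strand at chr19:18374731-18389176.

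SPATA18, which takes part in mitochondrial quality control, was the lowest member by level. It measured 3.63, 4.16 and 4.07 TPM in mimic libraries, against 4.34, 4.56 and 5.18 TPM in control libraries. The groups did not overlap, but the gene had only 146 to 222 estimated reads per library, and its log2 fold change of -0.20 had an unadjusted p of 0.0903 and an adjusted p of 0.572 (limma). TP53I3, a quinone oxidoreductase, measured 146.6, 135.4 and 146.8 TPM with the mimic and 152.6, 150.4 and 147.9 TPM in controls. The groups were separate by little more than 1 TPM, with a ratio of 0.951 and a log2 fold change of -0.07 (limma, adjusted p = 0.736). FDXR, the mitochondrial ferredoxin reductase, was the 1 member of this arm that overlapped, at 21.2 ± 2.74 TPM with the mimic and 20.2 ± 1.66 TPM in controls (SD, n = 3 each).

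Among the genes that feed back on p53, the phosphatase stood apart and the ubiquitin ligase did not. PPM1D encodes WIP1, which removes activating phosphates from p53 and from damage kinases. It measured 18.2, 19.3 and 16.3 TPM in mimic libraries, against 21.3, 22.9 and 21.9 TPM in control libraries. Every mimic value was below every control value, with a ratio of 0.813 and a log2 fold change of -0.29 (SE 0.08, 95% interval -0.46 to -0.12; limma, unadjusted p = 0.0045, adjusted p = 0.174). PPM1D (ENSG00000170836) lies on the plus strand at chr17:60600183-60666280, with no annotated exon overlap. MDM2, the ligase that marks p53 for degradation, measured 47.2, 53.1 and 42.7 TPM with the mimic and 43.4, 47.1 and 48.5 TPM in controls. Mimic libraries 2 and 3 were the highest and the lowest of all 6, and the log2 fold change was 0.04 (95% interval -0.16 to 0.23; limma, adjusted p = 0.958). MDM4, the partner of MDM2, had a log2 fold change of -0.08 with overlapping groups.

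The remaining genes of that arm act in protein turnover and the cell cycle. FBXO22, an F-box protein of a ubiquitin ligase, measured 11.5, 11.5 and 11.6 TPM in mimic libraries, against 12.3, 13.1 and 13.7 TPM in control libraries. Its mimic values were the tightest of any member, with a coefficient of variation of 0.649%, and the groups did not overlap (log2 fold change -0.16, SE 0.07; limma, unadjusted p = 0.0485, adjusted p = 0.463). CCNG1, cyclin G1, was the most abundant member per length, at 231, 244 and 219 TPM with the mimic and 207, 219.5 and 218 TPM in controls. Mimic library 3 lay within the control range, and the log2 fold change was 0.11 (SE 0.06; limma, adjusted p = 0.595). FBXW7, the adaptor that targets cyclin E and MYC for degradation, had a log2 fold change of -0.04.

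**Figure D3:**
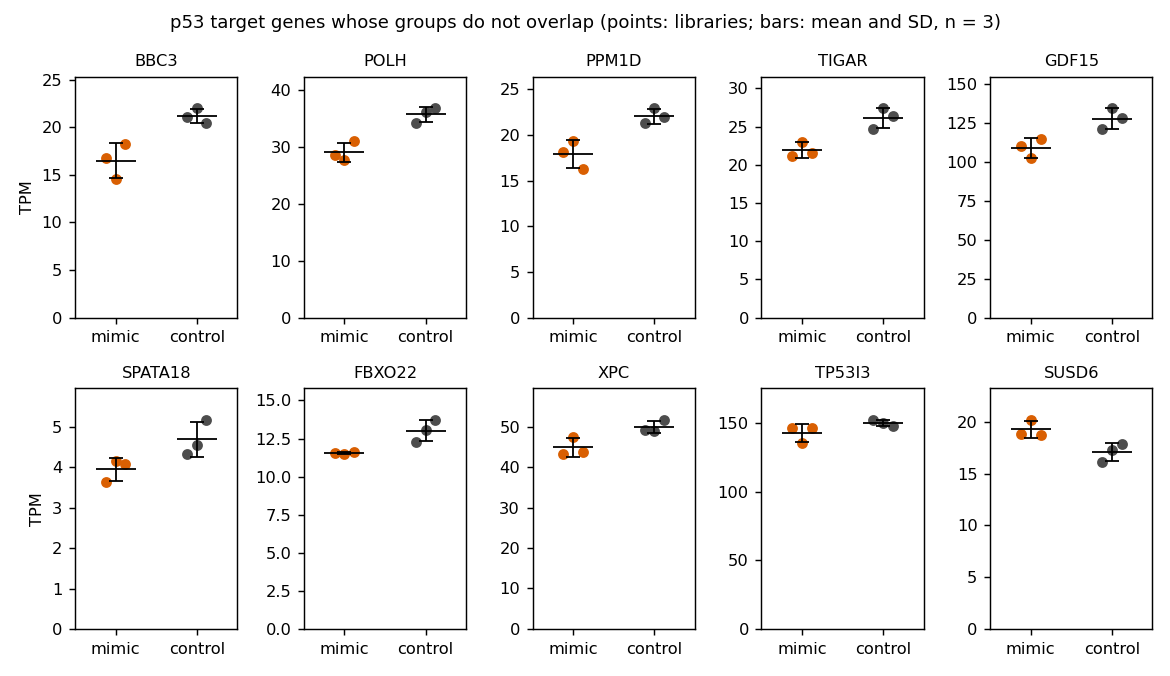
TPM (y axis, from 0) of the 10 p53 target genes whose mimic and control values do not overlap, with points for libraries and bars for the mean and SD (n = 3 each). BBC3, POLH and PPM1D have ratios of means of 0.779, 0.814 and 0.813, SUSD6 is the 1 gene with higher mimic values, and the gap is narrow in TP53I3.

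The libraries of each group also differed among themselves. Mimic library 2 held the highest mimic value in 15 of 31 members and the lowest in 13, against 47.02% and 31.06% of all genes tested. Mimic library 3 held the highest in 13 and the lowest in 12, against 34.3% and 40.6% of all genes tested. Of all 6 libraries, mimic library 2 was the highest in 8 members and the lowest in 11, against 24.9% and 19.99% of all genes tested. The 17 members higher in mimic library 2 than in mimic library 3 had a median transcript GC content of 42.1% and a median 3′ UTR of 2538 bases, against 58.3% and 864 bases in the 14 members higher in mimic library 3. The log2 difference between these libraries ran from -0.58 (PIDD1) to 0.36 (PMAIP1). Across the 31 members its Spearman correlation with transcript GC was -0.829, and across 11855 genes it was -0.673; genes of a library share its preparation and are not independent replicates. The control libraries held such a difference too. The log2 difference of control library 3 over control library 2 had a Spearman correlation with GC of -0.636 across the members and -0.386 across the 11855 genes. The mimic minus control fold change had a correlation with GC of -0.13 across the members and -0.006 across the 11855 genes. The part of GC in the spread of BAX, MDM2 and CDKN1A, for which mimic libraries 2 and 3 lay far apart, was not tested.

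**Figure D4:**
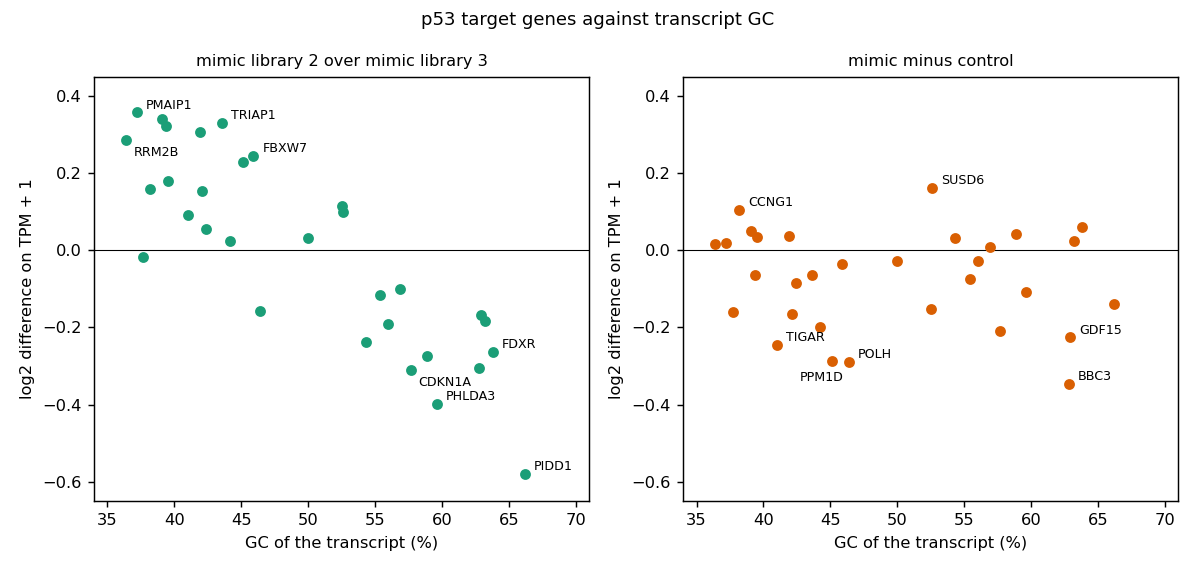
Transcript GC content (x axis, %) of the 31 p53 target genes against the log2 difference on TPM + 1 between mimic libraries 2 and 3 (left) and between mimic and control groups (right), 1 point per gene. The left points fall with GC, from PMAIP1 at 0.36 to PIDD1 at -0.58 (Spearman -0.829), while on the right the lowest genes lie at both low GC (TIGAR, POLH, PPM1D) and high GC (BBC3, GDF15).

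Because GC content moved with the spread between libraries, the test was run again after a smooth GC trend was taken out of each library, an alternative chosen after seeing the data. Over the 11855 genes with a transcript GC, 279 (2.35%) were then lower and 149 were higher at an adjusted p under 0.05 (limma), 3.61% together. Among the 31 members, 5 were lower and 0 were higher. BBC3 had a log2 fold change of -0.32 (SE 0.05, adjusted p = 0.0118), GDF15 -0.20 (adjusted p = 0.0224), PPM1D -0.27 (adjusted p = 0.0306), TIGAR -0.22 (adjusted p = 0.0409) and POLH -0.27 (adjusted p = 0.0462), all by limma. The fold changes of these 5 genes moved by less than 0.04 from the unadjusted fit, and their standard errors were smaller. CDKN1A stayed outside the threshold (-0.19, adjusted p = 0.154), and CCNG1 had 0.13 (adjusted p = 0.0632).

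The 5 GC-adjusted calls did not all hold when 1 library was left out. Only BBC3 passed without control library 3 and without mimic library 1, BBC3 and GDF15 passed without control library 1, BBC3 and PPM1D without mimic library 2, and BBC3 and POLH without mimic library 3. Without control library 2, 0 members passed. Of the 11855 genes, 125 passed in that fit, and 131 to 235 in the other fits with 1 library left out. BBC3 thus passed in 5 of 6 such fits and TIGAR in 0 of 6. On the same 11855 genes without the GC step, 0 members passed, where 64 genes were higher and 156 lower.

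Searching the longest 3′ UTR of each member gave 9 of 31 (29.03%) with CAACATT, which pairs with all 7 seed bases, or AACATTA, which pairs with bases 2 to 7 of the microRNA and has an A after them. Over 11855 genes, 22.8% held either of these or CAACATTA, which joins both and was in no member. ZMAT3, PPM1D and CCNG1, with CAACATT, had log2 fold changes of 0.04, -0.29 and 0.11, so the genes with the longest matches lay on both sides of 0. The 6 members with AACATTA (FAS, PMAIP1, TP53INP1, MDM2, MDM4 and FBXO22) had a median of -0.02, and the 8 with AACATT alone, among them POLH, TIGAR and XPC, a median of -0.16 with 7 below 0. Over all genes of those classes the medians were -0.0141 and -0.0152, with 55.5% and 56.2% of the genes below 0. The 14 members without a match, which include BBC3, GDF15, CDKN1A and SUSD6, had a median of -0.03 against -0.0211 over all such genes. Of the 11855 genes, 22.5% held AACATT alone and 54.6% held no match. A match of letters is a description and not a site shown to bind.

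Promoter windows from 250 bases before to 50 after the start were found for 26 of 31 members (RefSeq, GRCh38.p14). They were searched on both strands for the p53 half-site of 10 bases, and for a full element of 2 half-sites with at most 2 mismatches, intact 4-base cores and a spacer of at most 10 bases. An exact half-site was in 2 windows (7.7%), those of AEN and FDXR, and the full element was in 1 (3.8%), that of AEN. Over all 27305 promoters, tested genes or not, the shares were 6.5% and 1.2%. Over the 10278 promoters of tested genes they were 5.2% and 0.8%. The sequences are shown because they are the p53 letters found in the members' start regions, with the full element (AEN) and the half-site (FDXR) in capitals.
AEN: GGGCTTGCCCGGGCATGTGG
FDXR: gcaggagcGGGCTTGCCCtgcggagc
They lie at chr15:88621306-88621325 on the plus strand and, for the capitals, chr17:74872996-74873005 on the minus strand. Neither gene passed the test between the groups, with log2 fold changes of -0.03 for AEN and 0.06 for FDXR. Windows this short do not reach the introns and upstream regions where many p53 elements are known to lie.

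Of 28 tested genes for regulators and partners of p53, 0 passed and 3 were lower at an unadjusted p under 0.05: the histone chaperone and p53 regulator DAXX (-0.19, adjusted p = 0.15), the deacetylase SIRT1 (-0.28, adjusted p = 0.358) and the methyltransferase KMT5A (-0.15, adjusted p = 0.457), by limma. Over all genes tested, 7.64% were lower at that threshold. mRNA levels do not report p53 protein or its activity.

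Among 41 other direct p53 targets tested, 1 rose and 1 fell; 1 was higher and 5 were lower at an unadjusted p under 0.05. Over all genes tested, 3.05% were higher and 7.64% lower at the unadjusted threshold. The list's median was -0.009 on the log2 scale. GADD45A, a stress gene of arrest and repair, had 282, 276 and 266 TPM with the mimic and 194, 194 and 194 TPM in controls (log2 fold change 0.50; limma, adjusted p = 0.00618). BTG2, an antiproliferative gene named in the study's title, had 53.6, 55.6 and 45.7 TPM with the mimic and 81.0, 78.9 and 80.0 TPM in controls (-0.63; limma, adjusted p = 0.0143). Both fold changes were farther from 0 than that of any of the 31 members. BTG2 did not pass without mimic library 1 (adjusted p = 0.0582), control library 1 (0.0823), control library 2 (0.0699) or control library 3 (0.0785) by limma, while GADD45A passed without any 1 library. SESN2, a stress-induced inhibitor of mTORC1 signalling, had 11.1, 11.1 and 14.6 TPM with the mimic and 17.6, 19.5 and 18.3 TPM in controls, and the kinase gene PLK3 16.5, 12.9 and 16.2 TPM with the mimic and 19.2, 24.5 and 21.6 TPM in controls. Neither passed, at log2 fold changes of -0.56 (adjusted p = 0.0763) and -0.49 (adjusted p = 0.128) by limma, but both did after the GC adjustment (SESN2 adjusted p = 0.00825, PLK3 adjusted p = 0.021). In that fit, chosen after seeing the data, 3.61% of genes passed in either direction, BTG2 and GADD45A among them. Whether the GC-adjusted calls of SESN2 and PLK3 hold with 1 library left out is not given here. SERTAD1, a regulator of the cell cycle, had 11.97, 10.6 and 15.7 TPM with the mimic and 17.02, 18.4 and 15.7 TPM in controls (-0.41; limma, adjusted p = 0.28), and mimic library 3 reached just into the control range. The kinase gene PLK2 had 163, 172 and 159.6 TPM with the mimic and 173, 179.7 and 193.5 TPM in controls (-0.14; limma, adjusted p = 0.422), without overlap.

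Genes downstream of and parallel to the pathway gave counts of 0 as well. Of 25 genes of the DNA damage and replication stress response, 0 passed and 2 were lower at an unadjusted p under 0.05, the kinase WEE1 (-0.23, adjusted p = 0.267) and the ligase LIG4 (-0.23, adjusted p = 0.308), by limma. Another list held cell cycle genes that p21 represses through the DREAM complex, and also RBL1, RBL2 and LIN54 of that complex. Of its 25 genes, 0 passed and 1 was lower at an unadjusted p under 0.05, the phosphatase CDC25A (-0.25, adjusted p = 0.259 by limma). Over all genes tested, 7.64% were lower at the unadjusted threshold. The medians of these lists, -0.03 and -0.02, lay near that of all genes tested.

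**Figure D5:**
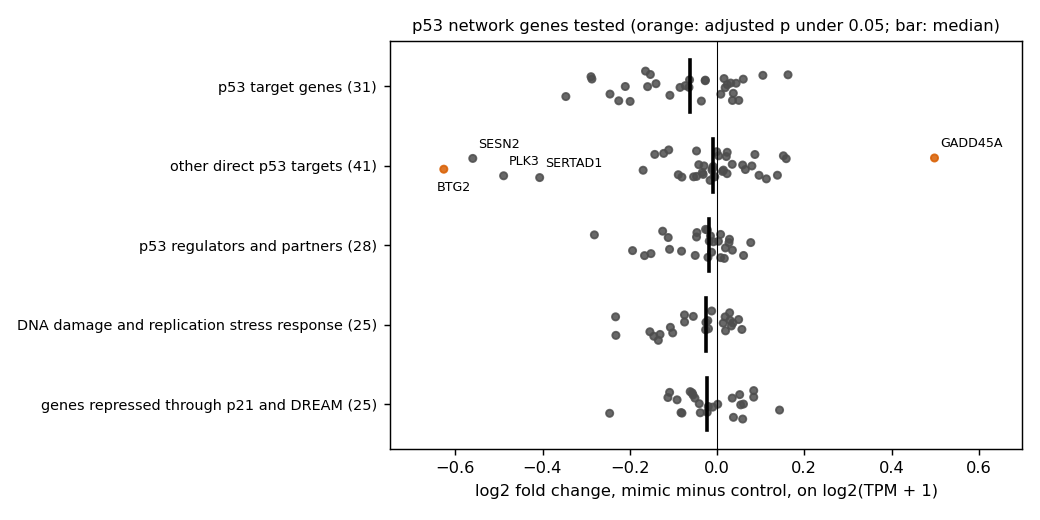
Log2 fold change, mimic minus control, on log2(TPM + 1) (x axis) of each tested gene of the p53 target genes and of 4 other lists of the p53 network, with the number of genes in brackets, a bar at each median and orange for an adjusted p under 0.05. The 31 p53 target genes lie between -0.35 and 0.16 with none in orange, and GADD45A at 0.50 and BTG2 at -0.63 are the orange points among the other direct targets.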

How the data were processed

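Each library has 1 table of TPM values by Ensembl gene ID, as deposited by the authors, per the file headers. The submitters' processing notes name GRCh38.p13 (hg38); the sources used here do not give the aligner, counter, annotation or strand use. Libraries were made from 500 ng RNA with 13 PCR cycles and sequenced as single reads of 75 cycles, per the labels' protocols. Symbols matched 45102 of 45372 IDs. Genes reaching 1 TPM in 3 or more of the 6 libraries were tested on log2(TPM + 1) with limma 3.58.1 (R 4.3.3; trended prior, group only) and Benjamini-Hochberg adjustment over all 13680. The GC alternative subtracted a lowess curve (span 0.3) of each library's deviation. The fits were tested on simulated data. Depth was estimated from steps between low values, of which 76.3 to 77.3% of 4000 were whole within 0.02 of a read; TPM holds no counts, so no count test was run. Members and lists were chosen with earlier results of these data known. Named in full were members without overlap or with unadjusted p under 0.05, and CDKN1A, MDM2, BBC3, BAX, DDB2, GDF15 and TIGAR; from other lists, genes past the threshold and up to 8 a list at unadjusted p under 0.05; 1 further gene named by that rule is not reported here. APAF1, CCNG1 and PHLDA3 were named in full after their values were seen. Other settings are in the closing section.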

Additional observations from a re-analysis of the deposited data

How the results depend on the processing

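With 3 libraries a group, the median p53 target gene difference of -0.06 stayed below 0 in all 18 other settings run (-0.078 without control library 1 to -0.034 without control library 3; -0.0367 after GC adjustment). The direction of 14 members also held in every setting that tested them, and 529 of 556 member values kept their sign. SPATA18, among those 14, and FAS were not tested under the filter of 5 TPM. 5 values passed the adjusted threshold, all after GC adjustment, where 5 members were lower instead of 0; leaving out 1 library gave 0 to 2. Members higher at an unadjusted p under 0.05 numbered 2 with median-of-ratios scaling, 2 after GC adjustment, 0 with a replicate block and 0 to 2 with 1 library left out, instead of 1.

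Genes higher numbered 18, and 6 with no filter, 36 with a filter of 5 TPM, 33 with median-of-ratios scaling, 34 with quantile scaling, 10 without a trended prior, 37 with a robust one, 54 over protein-coding genes, 149 after GC adjustment, 64 over the same genes without it, and 6 to 22 with 1 library left out. Genes lower numbered 41, and in that order 5, 79, 54, 42, 10, 82, 122, 279, 156 and 6 to 27. With the replicate block 9 were higher and 5 lower. Deviations of same-numbered libraries from their group means had correlations of 0.031, -0.087 and -0.112. Those of differently numbered libraries ran from -0.031 to 0.114. With 3 libraries a group, these values cannot decide whether same-numbered libraries share a culture or a batch.

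Under quantile scaling AEN (0.0138) and FBXW7 (0.0129) turned positive. With 1 library left out, log2 fold changes crossed 0 in ZMAT3 (-0.0225 to 0.0825), FAS (-0.0615 to 0.1735), TNFRSF10B (-0.078 to 0.0314), PIDD1 (-0.2812 to 0.0089), BAX (-0.032 to 0.1056), PMAIP1 (-0.0816 to 0.0975), BCL2L1 (-0.0328 to 0.0392), TRIAP1 (-0.1545 to 0.0109), AEN (-0.0756 to 0.0193), PHLDA3 (-0.1852 to 0.0303), TP53INP1 (-0.1495 to 0.0126), NINJ1 (-0.034 to 0.0675), DDB2 (-0.0408 to 0.0785), RRM2B (-0.063 to 0.0807), FDXR (-0.0382 to 0.1252), MDM2 (-0.0421 to 0.112) and FBXW7 (-0.0799 to 0.0473). None of these members had passed the test. GADD45A passed in 18 of 18 settings, BTG2 in 11 and SESN2 in 6. The cause of these shifts was not tested.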
